A study of Mus musculus with 6 samples.

Results

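The genes described here are 7 voltage-gated channel genes of auditory neurons: the sodium channel subunits Scn1a and Scn8a, the potassium channel subunits Kcna1, Kcna2 and Kcnc1, and the hyperpolarisation-activated channels Hcn2 and Hcn4. They were found by matching the platform's gene symbols, which gave 13 of the 55676 probes on the array. Of these, 12 probes of 6 genes passed the filter on dim signals, for which the raw signal had to exceed the 40th percentile of the same array on 3 or more of 6 arrays, as 33484 probes did. The single Hcn4 probe did not pass.

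RNA came from whole cochleae of female mice aged 7 months, and was labelled with Cy3 and hybridised to 1-colour Agilent arrays. Wild-type mice were Fabp7 (+/+) and knockout mice Fabp7 (-/-), so the groups differ in a fatty acid binding protein found in glia, with no treatment in either. Each group had 3 samples, each a pool of 4 cochleae from 2 mice, with the otic capsule included and vestibular tissue left out. The strain of the mice and the way the gene was inactivated are not given in the sources used here. Fabp7 itself had raw signals between 1554 and 2674 in wild type and between 3.43 and 10.9 in knockout, in the direction of every label.

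Spiral ganglion neurons carry sound information from hair cells to the brainstem as precisely timed spikes. Sodium channels start each spike at the first heminode and renew it at the nodes of Ranvier, low-voltage-activated Kv1 channels hold the membrane back from repeated firing, Kv3 channels repolarise it quickly, and HCN channels carry a depolarising current that sets the resting potential and the speed of recovery. Whole cochleae also hold other excitable cells, and central nervous tissue can stay on the nerve root, so an RNA level from the whole organ is a sum over cell types. In such bulk RNA, fewer neurons and less channel RNA per neuron cannot be told apart.

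Promoter sequences are shown for 4 of the genes because Scn1a has the fewest CpG pairs of the genes in the promoter table, Kcnc1 has as many as any, and Hcn2 and Hcn4 are relatives of which only Hcn2 passed the filter. The RefSeq promoter table of GRCm38.p6 held 6 of the 7 genes, with a pair of starts for Scn8a. The 250 bases before the annotated start are printed 5′ to 3′ on the gene's strand, with capitals marking every GC box (GGGCGG or its reverse complement CCGCCC) and every CCAAT box (CCAAT or ATTGG). The windows are chr2:66440838-66441087 on the minus strand for Scn1a, and on the plus strand chr7:46396218-46396467 for Kcnc1, chr10:79716384-79716633 for Hcn2 and chr9:58822699-58822948 for Hcn4.
Scn1a: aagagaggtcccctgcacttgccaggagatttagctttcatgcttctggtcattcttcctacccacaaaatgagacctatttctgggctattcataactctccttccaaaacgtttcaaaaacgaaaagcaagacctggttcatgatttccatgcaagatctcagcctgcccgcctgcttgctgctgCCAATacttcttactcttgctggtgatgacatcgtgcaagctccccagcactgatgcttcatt
Kcnc1: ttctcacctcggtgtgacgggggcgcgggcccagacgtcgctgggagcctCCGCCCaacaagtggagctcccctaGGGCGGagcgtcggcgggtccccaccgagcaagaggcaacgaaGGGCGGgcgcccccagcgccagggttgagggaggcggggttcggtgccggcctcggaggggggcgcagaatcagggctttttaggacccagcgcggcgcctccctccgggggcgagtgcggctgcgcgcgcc
Hcn2: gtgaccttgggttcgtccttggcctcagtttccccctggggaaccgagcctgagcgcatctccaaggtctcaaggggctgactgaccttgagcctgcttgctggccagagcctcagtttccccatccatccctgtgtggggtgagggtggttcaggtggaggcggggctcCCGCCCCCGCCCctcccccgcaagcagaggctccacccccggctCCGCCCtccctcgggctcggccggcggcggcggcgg
Hcn4: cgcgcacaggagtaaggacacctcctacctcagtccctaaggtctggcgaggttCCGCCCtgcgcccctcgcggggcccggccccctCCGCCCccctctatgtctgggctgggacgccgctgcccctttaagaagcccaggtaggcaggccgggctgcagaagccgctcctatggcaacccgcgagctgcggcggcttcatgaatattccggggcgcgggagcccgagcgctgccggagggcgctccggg

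The Scn1a window had a GC content of 46.8% with 4 CpG pairs and 1 CCAAT box. Kcnc1 had 74.4% GC with 30 CpG pairs and 3 GC boxes, Hcn2 70.4% with 16 CpG pairs and 3 GC boxes, and Hcn4 71.2% with 25 CpG pairs and 2 GC boxes. Over the 32851 promoter windows of this length in the table the median was 52.4% GC and 6 CpG pairs, 32.7% held a GC box and 33.8% a CCAAT box. No matched motif shared a base with another in these windows. Neither promoter of Scn8a nor that of Kcna2 held either box, and their GC contents were 68.0% and 53.2% for the starts of Scn8a and 62.4% for Kcna2. A match is only a description of the letters.

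The wild-type level of each gene was read from its place among all probes of an array. Signals of different probes depend on the probe as well as the RNA, so the genes are not ranked against each other. The Kcna1 probe, for the Kv1.1 subunit, lay at percentiles 97.3, 96.7 and 96.5 of the wild-type arrays. Those of the brighter Hcn2 probe were 91.3, 90.7 and 91.3. Of the other four genes past the filter, the brightest probe lay between percentiles 79.2 and 89.2 on the wild-type arrays. All 12 probes of these 6 genes exceeded the 40th percentile on each of the 6 arrays, so none passed through 1 group alone. Nearest to the limit was the dimmest Scn8a probe, with 44.0 as its lowest percentile. The Hcn4 probe lay far below it, at percentiles 16.3 to 20.0.

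**Figure D1:**
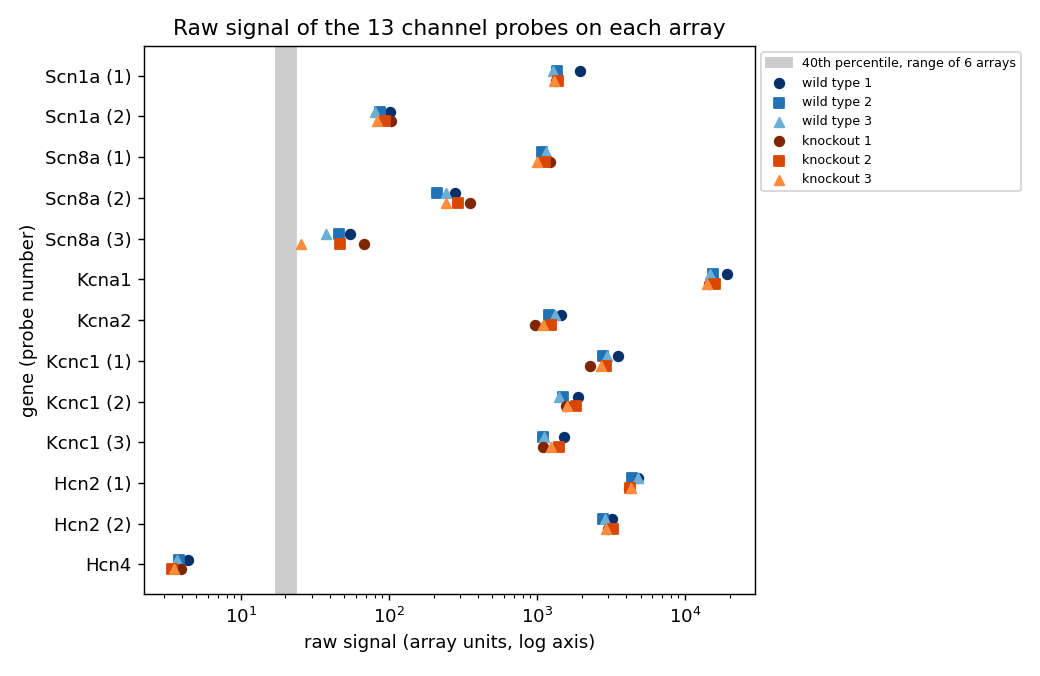
Raw signal (log axis) of each of the 13 channel probes on the 3 wild-type arrays (blue) and the 3 knockout arrays (orange), with probes of a gene numbered from the brightest. The grey band is the range of the 40th percentile over the 6 arrays, and only the Hcn4 probe lies below it, at 3.43 to 4.41.

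Hcn4, the slowest of the HCN channels and best known as the pacemaker channel of the heart, read raw signals of 4.41, 3.84 and 3.70 in wild type against 3.95, 3.43 and 3.50 in knockout. The lowest signal of any probe was 2.70 to 3.49 by array. The Hcn4 signals lay inside the range that the Fabp7 probe gave in mice without the gene. No level and no fold is given for Hcn4, since both groups were in the range of the dimmest probes, and a low signal of 1 probe does not show that the transcript is missing.

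The main question of the design was which transcripts differ in the cochlea without Fabp7. With 1 probe for each gene, limma called 0 of the 6 channel genes past the filter at an adjusted p under 0.05, and 0 of them reached an unadjusted p under 0.05. The smallest adjusted p was 0.866, for Scn8a. This stands beside a background of 0% called among all 27189 features. Fabp7 itself was not called either, with a change of −8.42 ± 0.47 and an adjusted p of 0.061 by limma. A gene that was not called is therefore not shown to be unchanged. Over single probes, limma called 0 of the 12 channel probes after adjustment, again beside 0% of all 33484 probes. At an unadjusted p under 0.05 there were 2 higher and 0 lower, where 3.09% of all probes were higher and 2.71% lower. The same 2 probes, 1 each of Scn8a and Hcn2, were those whose groups did not overlap, with knockout above wild type. Over all probes 7.86% had such separated groups with knockout higher and 4.42% with knockout lower, and 0 channel probes were of the latter kind. With 3 samples against 3, an exact two-sided permutation test cannot go below 0.10, which both probes reached.

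**Figure D2:**
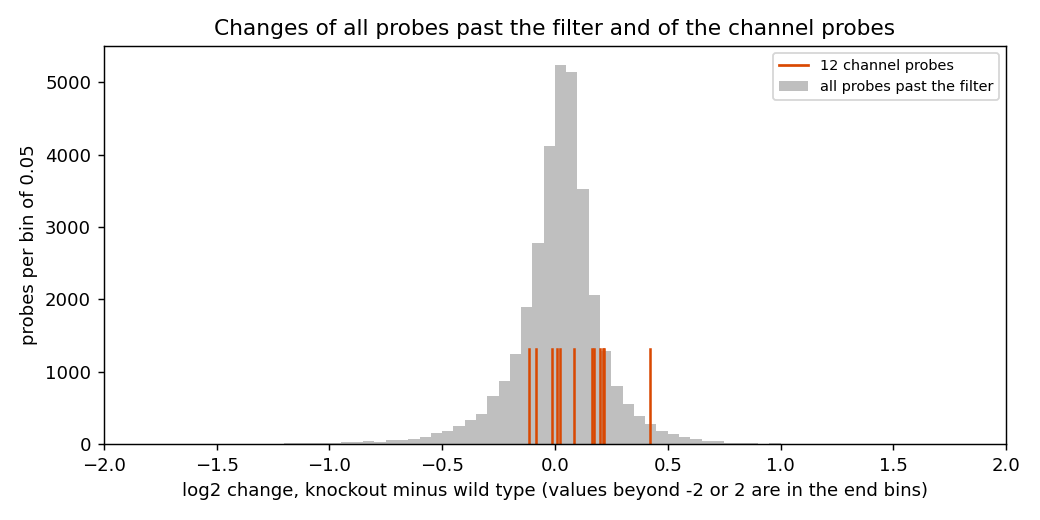
Distribution of the log2 change, knockout minus wild type, over all 33484 probes past the filter (grey, bins of 0.05), with the 12 channel probes as orange lines. The channel probes lie between −0.11 and 0.42, inside the range of all probes, with the largest change, of the middle Scn8a probe, in the upper tail.

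Among the sodium channels, Scn8a encodes Nav1.6, the main channel of mature nodes and of the axon initial segment. Its brightest probe, A_55_P2057132, read raw signals of 1080, 1084 and 1144 in wild type against 1224, 1130 and 994.5 in knockout. After scaling, by taking log2 and subtracting the 75th percentile of each array, the knockout arrays lay at 1.00, 0.86 and 0.78 against 0.67, 0.70 and 0.78 in wild type. Knockout array 1 was the highest and knockout array 3 met the top of the wild-type range, so the groups overlapped. The change was 0.16 ± 0.08 (SE, n = 3 per group), with a 95% interval from −0.04 to 0.37.

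The middle Scn8a probe, A_55_P2072339, had raw signals of 277, 211 and 244 in wild type against 353, 294 and 242 in knockout. On the scaled log2 axis these were −1.29, −1.66 and −1.45 against −0.79, −1.08 and −1.26, so that each knockout array lay above each wild-type array, by the narrowest margin for knockout array 3. Its change of 0.42 ± 0.15 was the largest of any channel probe, with an interval from 0.04 to 0.80 and an adjusted p of 0.834 by limma. It stayed above 0 in all 17 recomputations with other settings or without an array, between 0.27 and 0.53. Some of these settings, such as the filter, the prior and the replicate block, cannot move the change of a single probe. The dimmest Scn8a probe, A_55_P2072333, differed by 0.08 ± 0.35, with knockout arrays both at the top (−3.17, array 1) and at the bottom (−4.51, array 3) of the 6. The probes of Scn8a therefore gave changes from 0.08 to 0.42, and which transcripts each probe reads was not examined here.

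Scn1a encodes Nav1.1, a channel of axon initial segments and cell bodies of fast-firing neurons. Its brighter probe, A_55_P2138761, gave 1949, 1373 and 1272 in wild type against 1333, 1394 and 1309 in knockout. Wild-type array 1 stood above the others, which kept between 1272 and 1394. The knockout values had an SD of 0.02 on the log2 scale, against 0.32 in wild type, and the change was −0.01 ± 0.16 (95% interval −0.40 to 0.38). Without wild-type array 1 it was 0.17 ± 0.07. Its dimmer probe, A_55_P2138769, with signals of 80.8 to 104, was at 0.21 ± 0.11 over all arrays.

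The Kv1 subunits assemble with each other into channels that sit beside the nodes under the myelin. Kcna1 (Kv1.1), measured by 1 probe, gave signals of 19249, 15380 and 14696 in wild type against 14492, 15825 and 14132 in knockout. Wild-type array 1 was again the highest, whereas after scaling the other wild-type arrays (4.53 and 4.46) lay just below all knockout arrays (4.57 to 4.67). The group means were 4.61 ± 0.20 (SD, n = 3) for wild type and 4.62 ± 0.05 (SD, n = 3) for knockout. The change was 0.01 ± 0.11 (SE), with an interval from −0.27 to 0.28, and its sign depended on the scaling.

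Kcna2 (Kv1.2), also with 1 probe, gave 1453, 1212 and 1315 in wild type against 969, 1247 and 1105 in knockout. Knockout array 1 was the lowest of the 6 and wild-type array 1 the highest, and the other arrays overlapped. At −0.11 ± 0.12 (95% interval −0.40 to 0.17) it had the lowest change of the channel probes. It was below 0 in all 17 recomputations, from −0.26 to −0.015, some of which cannot move the change. The ratio of Kv1.1 to Kv1.2 transcripts was not formed, since each is read by a different probe.

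Kcnc1 encodes Kv3.1, whose fast opening and closing lets auditory neurons fire at high rates. Its brightest probe, A_52_P592305, gave 3529, 2800 and 2947 in wild type against 2281, 2912 and 2706 in knockout, a change of −0.08 ± 0.13. Its other probes went the other way. The probe A_55_P2007243 gave 1900, 1499 and 1404 in wild type against 1562, 1842 and 1597 in knockout, a change of 0.22 ± 0.13, and A_52_P867058, which the platform assigns to another transcript of the gene, was at 0.17 ± 0.16. After scaling, knockout array 1 was the lowest of the 6 arrays for the first probe, whereas for the others it lay above wild-type arrays 2 and 3 and below the remaining arrays. All 3 intervals included 0, and the mean of the probes was 0.10.

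Hcn2, a neuronal HCN channel whose opening is eased by cyclic AMP, lies on chromosome 10, as Fabp7 does. Its brighter probe, A_55_P2088202, was the steadiest of all the channel probes, with 4800, 4377 and 4800 in wild type against 4203, 4252 and 4330 in knockout. After scaling the change was 0.02 ± 0.07 (95% interval −0.16 to 0.21). The other Hcn2 probe, A_55_P2088203, read raw signals of 3214, 2799 and 2875 in wild type against 3003, 3254 and 2921 in knockout. Its scaled values were 2.25, 2.07 and 2.11 against 2.30, 2.39 and 2.33, with no overlap, but by a margin of only 0.05 between wild-type array 1 and knockout array 1. Its change was 0.20 ± 0.08 (interval 0.01 to 0.39, adjusted p = 0.845 by limma), between 0.048 and 0.25 in the 17 recomputations. For Scn8a and Hcn2 alike, the probe with separated groups was not the brightest of its gene.

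**Figure D3:**
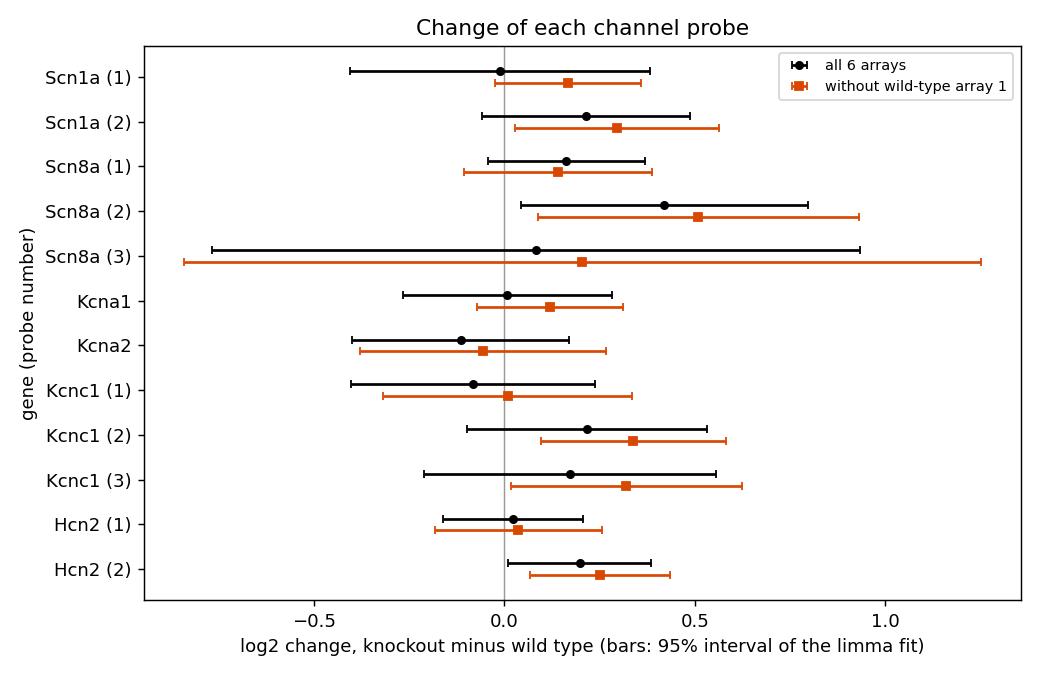
Log2 change, knockout minus wild type, of each of the 12 channel probes with its 95% interval from limma, over all 6 arrays (black circles) and without wild-type array 1 (orange squares). Over all arrays 10 of the 12 intervals include 0, and without that array 11 of the 12 changes lie above 0. Leaving it out can only raise the change of a probe for which it was the highest wild-type array.

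Within wild type, most channel probes were highest on array 1, but the brightest Scn8a probe was lowest there of all 6 arrays. Knockout array 1 had no common direction, with centred values from −0.26 (Kcna2) to 0.68 (the dimmest Scn8a probe). Wild-type array 1 was the highest wild-type array for 10 of the 12 probes, as it was for 42.0% of all probes past the filter, and the highest of all 6 arrays for 4. The mean centred log2 signal of the 12 probes was 0.12, −0.14 and −0.14 on the wild-type arrays against 0.08, 0.10 and −0.02 on the knockout arrays. With 1 probe for each gene it was 0.15, −0.09 and −0.05 against −0.07, 0.04 and 0.02. The spread inside wild type was thus as wide as the whole range of the 6 values.

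**Figure D4:**
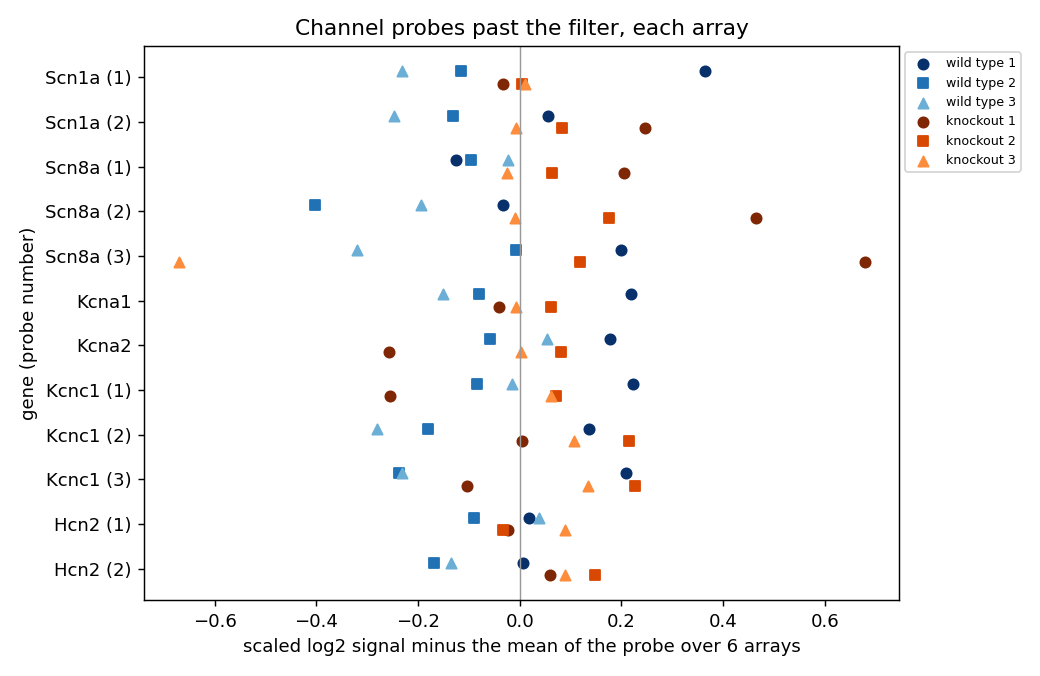
Scaled log2 signal of the 12 channel probes on each array, minus the mean of the probe over the 6 arrays, for wild type (blue, upper row of each probe) and knockout (orange, lower row). Wild-type array 1 (dark circle) is the highest wild-type array for 10 probes, and knockout array 1 (brown circle) is the highest of 6 for the Scn8a probes and the second Scn1a probe and the lowest for Kcna2 and the first Kcnc1 probe.

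Markers of the cells that hold these channels were also highest on array 1 among the wild-type arrays. All 23 listed markers of spiral ganglion neurons passed the filter, among them Nefh (neurofilament heavy chain), Tubb3 (neuronal tubulin) and Snap25 (a protein of vesicle fusion). Wild-type array 1 was the highest wild-type array for 23 of the 23 and the highest of all 6 for 18, against 21.0% of all features. The mean centred log2 signal of this list was 0.32, −0.07 and −0.22 in wild type against −0.04, 0.03 and −0.02 in knockout. The neuron markers had a median change of 0.06 beside 0.03 for all features, with 0 called by limma and 0 at an unadjusted p under 0.05. Nefh was at 0.13 ± 0.10, Tubb3 at 0.11 ± 0.12 and Snap25 at −0.04 ± 0.16.

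Schwann cells and satellite glia, which wrap the same neurons, had scores of 0.22, −0.17 and −0.09 in wild type against −0.07, 0.04 and 0.08 in knockout, with 11 of 14 listed markers measured. Of the 11, 10 were highest on wild-type array 1, among them Mbp, the myelin basic protein gene. Central nervous tissue, which can enter with the nerve root, had 8 of 13 listed markers past the filter and scores of 0.27, −0.47 and −0.03 against 0.02, 0.04 and 0.17. Among those that passed were Gfap (raw signals 1360 to 2524), Mobp (1397 to 2798), Mog (170 to 285) and Gad1 (68.9 to 128). Of the 8, 7 had a change above 0, and Gfap was at −0.34 ± 0.17. Gad2, Opalin, Slc6a5 and Neurod6 did not exceed the 40th percentile on any array. Hair cell markers scored 0.10, −0.49 and 0.03 against 0.14, −0.02 and 0.24. Of the 11 tested, 10 had a change above 0, with a median of 0.16 and 0 called by limma. Higher at an unadjusted p under 0.05 were 2 (background 3.04%), Ocm and Slc26a5, the latter with low signals (16.8 to 44.7). The skeletal muscle score was 2.86 on knockout array 2 against −1.08 to 0.28 on the others. On that array the centred channel probes lay between −0.03 and 0.23. It was the highest of the 6 arrays for the dimmer pair of Kcnc1 probes and the dimmer Hcn2 probe. The part of these cell types in the channel values was not tested.

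**Figure D5:**
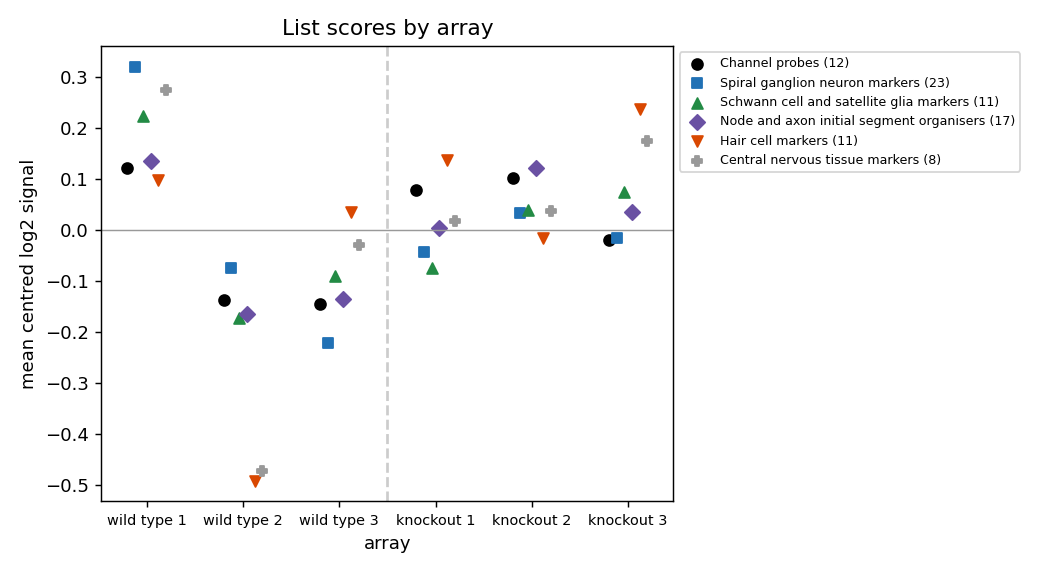
Mean centred log2 signal of each list on the 6 arrays, for the 12 channel probes and for 5 lists of other genes, with the number of probes or genes in brackets. Channel genes count once for each probe, and genes of the other lists once. The neuron markers reach 0.32 on wild-type array 1 and stay between −0.22 and 0.03 on the others, and the channel probes are at 0.12 on that array.

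With wild-type array 1 left out, 11 of the 12 channel probes had a change above 0, compared with 9 over all arrays, while 58.7% of all probes did. That array was the highest in wild type for 10 of the 12 probes. Leaving it out can only raise the change of such a probe, so the direction of this move was fixed in advance. The median change of the channel probes was 0.19 against 0.03 for all probes. With 1 probe for each gene, as in the marker lists, the median of the 6 channel genes was 0.08, with 5 above 0. Over all arrays that median was −0.0015, with 3 above 0. The marker lists moved as well, as they had to for every marker highest on that array in wild type. Their medians follow with those over all arrays in brackets. Neurons were at 0.21 (0.06), Schwann cells and satellite glia at 0.17 (0.04), and hair cells at 0.35 (0.16), with 11 of 11 above 0. Central nervous tissue was at 0.41 (0.25) and skeletal muscle at 1.22 (0.65). At an unadjusted p under 0.05 there were 5 channel probes higher and 0 lower, where 4.82% of all probes were higher and 2.90% lower. These were a probe of Scn1a, Scn8a and Hcn2 each and the dimmer pair of Kcnc1, and the smallest limma adjusted p was 0.637. Without wild-type array 2, wild-type array 3, knockout array 1 or knockout array 2, 0 channel probes reached that unadjusted level, and without knockout array 3 there was 1. The arrays were also centred on the neuron markers, a choice made after seeing these scores. The changes then ran from −0.10 (Kcna2) to 0.44 (the middle Scn8a probe), against −0.11 and 0.42 as reported, with 0 called. Such centring shifts the change of every probe by the same amount, so their order and spread could not alter. The SE grew for all but the dimmest Scn8a probe, as from 0.08 to 0.20 for the dimmer Hcn2 probe.

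Other genes of the same families and their partners were taken from fixed lists. Of the 10 sodium channel alpha subunits 6 passed the filter, with a median change of 0.00, and limma called 0 in either direction and found 0 at an unadjusted p under 0.05. Scn2a, a channel of developing and unmyelinated axons, was at 0.13 ± 0.21. Scn10a and Scn11a, best known from pain-sensing neurons, had wide errors, at 0.01 ± 0.98 and −0.29 ± 0.53, and both were highest on wild-type array 1. Of the auxiliary beta subunits and the FGF-homologous partners of sodium channels, 6 of 7 were tested and 0 called. Scn3b, a beta subunit, was at −0.38 ± 0.15 and Fgf13, which binds the channel's tail, at −0.30 ± 0.13. Each had all knockout arrays below all wild-type arrays, as in 4.27% of features, but the Fgf13 signals were low (36.3 to 65.0).

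All 11 listed Kv1 and Kv-beta subunits passed the filter, with a median change of 0.06, 8 above 0, 0 called and 0 at an unadjusted p under 0.05 by limma. Kcna6 (Kv1.6), a partner of Kv1.1 and Kv1.2, was at −0.25 ± 0.15, and Kcna4 (Kv1.4) at 0.16 ± 0.13. Kcnab1, a cytoplasmic beta subunit, was at 0.36 ± 0.20, with wild-type array 2 alone low at a raw signal of 710 against 1021 to 1222 on the others. Of the Kv3 subunits, Kcnc2 (Kv3.2) was at −0.50 ± 0.31 and Kcnc4 (Kv3.4) at 0.30 ± 0.16, on either side of Kcnc1, with 0 called. The Kcnc2 signals spread widely inside both groups, with 449, 327 and 218 in wild type against 260, 215 and 149 in knockout.

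Among HCN genes, Hcn3 was at 0.09 ± 0.13. Pex5l, which encodes TRIP8b, the auxiliary subunit that controls the trafficking and opening of HCN channels, had raw signals of 352, 263 and 303 in wild type against 438, 385 and 311 in knockout. After scaling the knockout arrays lay at −0.48, −0.69 and −0.90, all above the wild-type arrays at −0.94, −1.34 and −1.14, as in 8.08% of features. Its change was 0.45 ± 0.15 (adjusted p = 0.809 by limma). It was the only 1 of the 3 tested genes of that list at an unadjusted p under 0.05, where 3.04% of features were higher and 2.66% lower.

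The proteins that gather these channels at nodes and initial segments had 17 of 17 listed genes past the filter, a median change of 0.07 and 13 above 0. Limma called 0. At an unadjusted p under 0.05 there were 3 higher, where 3.04% of features were, and 3 had separated groups with knockout higher, as 8.08% of features did. Dlg4, the scaffold PSD-95, was at 0.25 ± 0.08 and Ank2, an ankyrin of the axonal membrane skeleton, at 0.24 ± 0.09, both with separated groups, as had Nfasc, the neurofascin gene, at 0.20 ± 0.09. Lgi2, a secreted ligand of the ADAM22 family, was at 0.36 ± 0.13, with wild-type array 1 (0.36) just above knockout array 3 (0.35), and Adam23, a receptor for LGI proteins, was at 0.26 ± 0.11. Of 21 further neuronal potassium and calcium channels 15 were tested and 0 called. Kcnq5, a subunit of the M-current, was at −0.59 ± 0.17 with separated groups but low signals (22.7 to 51.2), and Kcnd2, a Kv4 subunit, was at 0.36 ± 0.16.

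The genes whose profile over the 6 arrays was most like that of each channel were found by the smallest root mean square difference of the centred log2 signals among 16143 named genes. For Kcna1 these were Zwint (a difference of 0.017), Nacad (0.022) and Septin6 (0.023), against a spread of 0.12 for Kcna1 itself. For Scn1a they were Mecom (0.022), Tvp23a (0.033) and Fkbp1b (0.035), against a spread of 0.18. For Hcn2, whose own spread was only 0.057, they were Zfp820 (0.0091), Tlk2 (0.012) and Tmem9 (0.013). No other member and no listed neuron marker was among the 3 nearest genes of any channel. With 6 arrays and so many genes, close profiles are found for any gene.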

How the data were processed

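The authors deposited raw intensity values, 1 for each probe of an array (named raw per the file headers), and a matrix of log2 values, which equalled the log2 raw signal minus a constant per array to within 1.2e-06. Agilent Feature Extraction 10.7 was used, per the submitters' processing notes. How background was treated is not stated in the sources used here. The 75th percentile of the raw signal was 581 to 677 by array.

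Probe names came from the platform table (30625 probes with 1 gene, 25051 with none, 0 with several), updated by gene ID for 30331 from the RefSeq table of GRCm38.p6. After scaling and filtering as described above, the brightest passing probe stood for a gene, which left 27189 features, 16143 of them named genes. The group comparison used limma 3.58.1 under R 4.3.3 without covariates. Benjamini-Hochberg adjustment ran over all features, or over all 33484 probes for single probes, with a threshold of 0.05. The code of the fit was tested on simulated data, which does not show how small a change could be called in these samples. Replicates are pools of mice, and 3 arrays a group limit the precision. Named beside the 7 members were channel family genes past the filter, defining markers, and at most 4 of each other list by lowest unadjusted p. Nfasc, outside this rule, was named for its separated groups. The members, lists and rules were chosen with earlier results of these data known. Normexp correction and a slide or date block were not run, since the tables hold neither background signals nor dates. Other settings covered scaling, source of values, filter, probes of a gene, model of the spread, replicate number and each array left out.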

Additional observations from a re-analysis of the deposited data

How the results depend on the processing

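In all settings tried, limma called 0 channel genes, 0 channel probes and 0 genes of the other lists, and the exact permutation test, which cannot pass the threshold here, gave 0. The smallest adjusted p of a channel probe was 0.304, for the dimmer Hcn2 probe with array weights. Of 204 recomputed changes of channel probes, 184 kept their sign and 20 turned it, all of probes whose reported change lay between −0.08 and 0.08. Settings of the filter, the prior and the replicate block, raised low signals and the authors' values could not move a change beyond rounding. The signs kept there were fixed in advance. Without scaling, the median change of all features moved from 0.03 to −0.12, and Kcna1 was at −0.14, the brighter Hcn2 probe at −0.13 and the dimmest Scn8a probe at −0.066. Kcna1 was at −0.018 with quantile normalization and −0.0020 with centring on the median feature. With array weights the brighter Scn1a probe was at 0.13, the first Kcnc1 probe at 0.032 and the brighter Hcn2 probe at −0.0091, and with centring on neuron markers that Scn1a probe was at 0.0049. By the mean of a gene's probes Scn1a and Kcnc1 were each at 0.10. With each array left out, the ranges were −0.13 to 0.17 for that Scn1a probe, −0.23 to 0.44 for the dimmest Scn8a probe, −0.065 to 0.12 for Kcna1, −0.14 to 0.025 for the first Kcnc1 probe and −0.017 to 0.048 for the brighter Hcn2 probe.

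Over all features, where the reported fit called 0, limma called 1 with quantile normalization, without scaling, with low signals raised, and with a trended robust prior, 3 with array weights, 2 with centring on neuron markers, and 0 to 2 with an array left out. At an unadjusted p under 0.05 there were 827 higher and 723 lower, against 130 and 3208 without scaling, 2125 and 1302 with array weights, and 286 and 416 with centring on neuron markers. With an array left out these were 589 to 1316 and 531 to 1073. The cause was not tested.

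The replicate numbers did not pair the samples: deviations of same-numbered arrays correlated at −0.13, −0.04 and −0.14, and 0 of the 6 arrays correlated best with their own number. The replicate block gave 583 features higher and 616 lower, with 0 channel genes called. Dim signals limit the readings of the dimmest Scn8a probe, near the 40th percentile, and of Hcn4, far below it.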
